A study of Zea mays with 2 samples.

Results

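The genes described are 3 of the 41406 gene models measured in maize (Zea mays) endosperm, chosen by identifier because the enzymes they encode are known targets of the transcription factor Opaque2. They are pdk1 (GRMZM2G306345) and pdk2 (GRMZM2G097457), both for pyruvate orthophosphate dikinase (PPDK), and the gene of lysine-ketoglutarate reductase/saccharopine dehydrogenase (LKR/SDH, GRMZM2G181362, named lkrsdh1 in the RefSeq gene table). RNA came from endosperm of kernels at 15 days after pollination, in 1 wild-type library and 1 library of the mutant dek44, whose kernels are defective. Strain background, pooling of ears or kernels and the state of the o2 locus were points not given in the sources used here, and although the series text speaks of triplicates, 1 column of values per genotype was used. The dek44 lesion is known to affect a protein of the mitochondrial ribosome, and as the labels give no identifier for that gene, its transcript was not checked.

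PPDK interconverts pyruvate and phosphoenolpyruvate. In maize leaves it supplies the acceptor of the C4 carbon pump, and in the endosperm a cytosolic form is known to link starch and amino acid metabolism. The pdk1 locus is known to make a leaf and a cytosolic transcript from separate promoters, which a value per gene model cannot tell apart, whereas pdk2 encodes a cytosolic form. LKR/SDH is a bifunctional enzyme that starts lysine breakdown, and its low activity in opaque2 endosperm is known to go with more free lysine. Opaque2, a bZIP activator made in the endosperm, is also known for switching on the 22-kDa alpha zein genes, and its own level serves here as the reference for its targets.

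The unit is RPKM, in which reads are divided by the length of the gene model and by the library total, so levels can be compared between genes of 1 library, while values set across libraries depend on the scaling. Recovered library totals were 20861135 reads in wild type and 22612657 in dek44. With 1 library per genotype no difference has a replicate check or a test. The 95% intervals are exact conditional binomial ones from recovered reads, cover counting error only and describe these libraries, not the genotypes. Log2 ratios set dek44 over wild type after 1 was added to each RPKM, which shrinks the ratios of scarce genes, and a gene with at least 1 RPKM in either library is called expressed.

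With the RPKM as deposited, the PPDK genes stayed abundant in dek44, one near its wild-type level and the other above it. LKR/SDH was lower and o2 far lower. In wild type pdk1 was at 472 RPKM, and in dek44 at 425 RPKM. That is 1.11-fold lower in dek44 (95% interval 1.09 to 1.13), with a log2 ratio of -0.15, on 20932 and 20413 reads. In wild type pdk2 was at 678 RPKM, and in dek44 at 1175 RPKM. It was thus the higher of the PPDK genes in both libraries and 1.73-fold higher in dek44 (1.71 to 1.75), a log2 ratio of 0.79 on 40426 and 75885 reads. LKR/SDH was at 96.2 RPKM in wild type and 52.2 RPKM in dek44. It was the least abundant of the 3 in each library and 1.84-fold lower in dek44 (1.77 to 1.92), a log2 ratio of -0.87 on 6384 and 3755 reads.

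**Figure D1:**
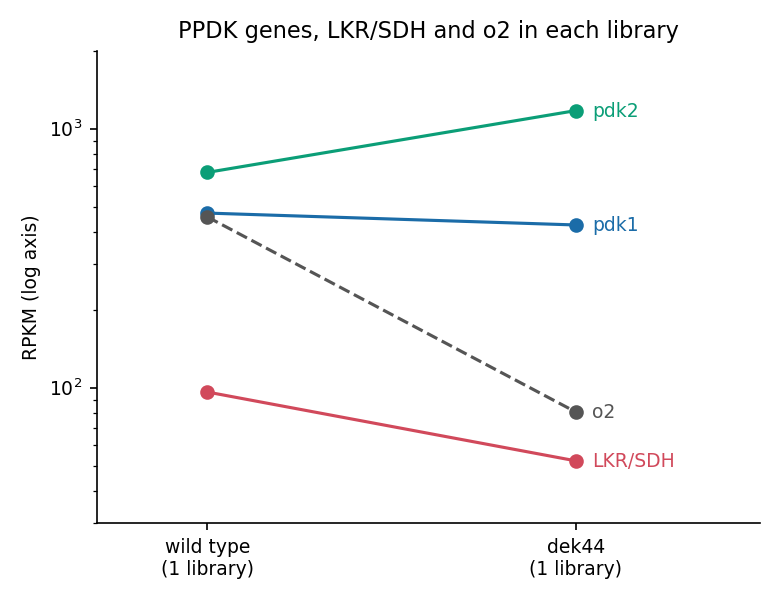
RPKM on a log axis of pdk1, pdk2, LKR/SDH and o2 in the wild-type and the dek44 library, 1 point per library, with lines that join the values of a gene and no error bars. The pdk1 line is almost level at 472 and 425, pdk2 goes from 678 to 1175, LKR/SDH from 96.2 to 52.2, and o2, dashed, from 456 to 80.7.

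By level, pdk1 ranked 205 among all gene models of the wild-type library and 413 in dek44. The pdk2 gene ranked 136 and 84, so it took a higher place in the mutant library. LKR/SDH ranked 1304 and 3817.

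Summed over both genes, PPDK came to 1151 RPKM in wild type and 1600 RPKM in dek44, a plain ratio of 1.39. On the RPKM as deposited, the difference came from pdk2, which was 496 RPKM higher in dek44, while pdk1 differed by -47.4 RPKM. As a result pdk1 made up 41.1% of the summed PPDK RPKM in wild type and 26.6% in dek44, and pdk2 exceeded pdk1 by 1.44 times in wild type and 2.76 times in dek44. The PPDK genes are alike in sequence, and with the assignment of reads that match both not given in the sources used here, the split between them is less certain than their sum. PPDK transcript per LKR/SDH transcript, on the RPKM scale, was 11.96 in wild type and 30.6 in dek44.

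None of the 3 genes passed the 2-fold threshold on the log2(RPKM + 1) scale. Of the 30136 expressed genes, dek44 had 9529 (31.6%) at 2-fold or more above wild type and 1116 (3.7%) at 2-fold or more below it. Their median log2 ratio was 0.62, with quartiles at 0.12 and 1.16. Against that distribution, pdk2 lay near the centre, with 58.5% of expressed genes at a lower ratio. For pdk1 16.0% of expressed genes had a lower ratio, and for LKR/SDH 4.6%. The 1550 genes with a mean RPKM from 100 to 1000, the class of pdk1 and pdk2, had a median log2 ratio of 0.79, which is also the value of pdk2. The 11139 genes from 10 to 100, the class of LKR/SDH, had a median of 0.57.

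**Figure D2:**
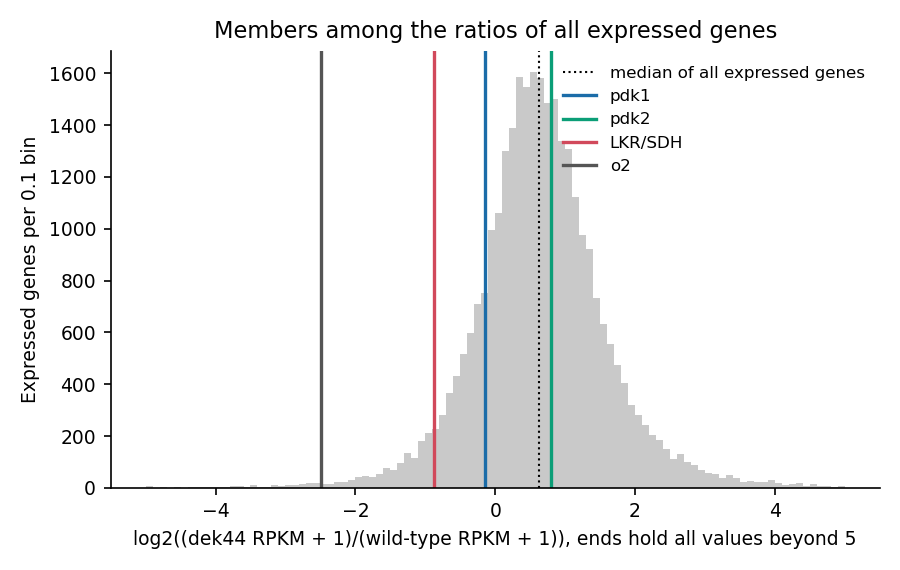
Histogram of log2((dek44 RPKM + 1)/(wild-type RPKM + 1)) over 30136 expressed genes in bins of 0.1, with vertical lines at pdk1 (-0.15), pdk2 (0.79), LKR/SDH (-0.87) and o2 (-2.49) and a dotted line at the median of all genes (0.62). The pdk2 line falls in the bulk of the genes, pdk1 on its lower side, LKR/SDH in the lower part and o2 far out.

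Because RPKM is relative to the library, the ratios move with the scaling. With the median ratio of expressed genes set to 0, the log2 ratio was -0.78 for pdk1, 0.17 for pdk2 and -1.49 for LKR/SDH, so LKR/SDH was then past 2-fold lower, as were 10.9% of expressed genes (3703 higher and 3284 lower). The summed PPDK ratio turned from 0.47 to -0.15 on that scale, where pdk1 lay further from 0 than pdk2. With the RPKM outside the 29 genes with a zein name made equal in both libraries, LKR/SDH was at -1.09, also past 2-fold, pdk1 at -0.38 and pdk2 at 0.56. Any zein gene models without such a name stay in that sum. The order, LKR/SDH below pdk1 below pdk2, was the same under each of these scalings, which shift all 3 nearly alike.

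**Figure D3:**
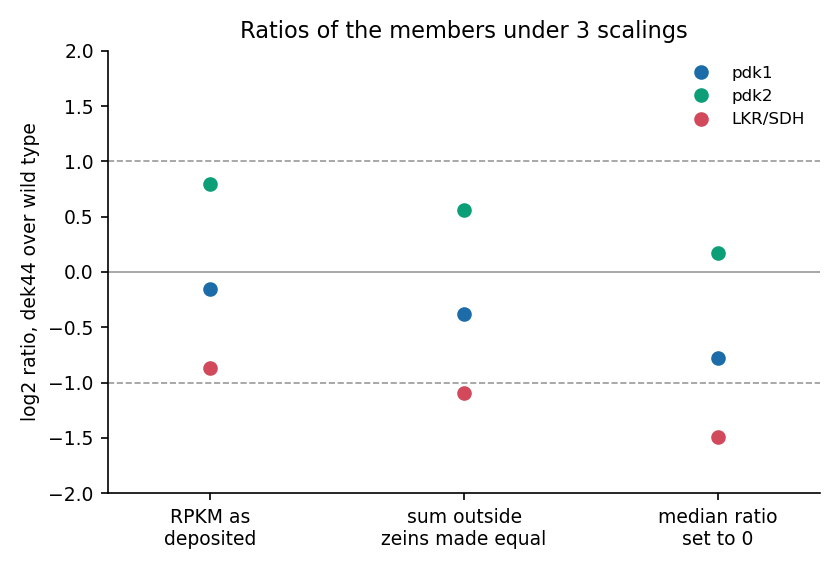
Log2 ratio of dek44 over wild type for pdk1, pdk2 and LKR/SDH with the RPKM as deposited, with the sum outside genes with a zein name made equal, and with the median ratio set to 0, 1 point each. Dashed lines mark 2-fold. LKR/SDH lies at -0.87, -1.09 and -1.49, pdk1 stays between -0.15 and -0.78, and pdk2 stays above 0.

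The regulator moved further than any of the 3 targets. The o2 gene (GRMZM2G015534) was at 456 RPKM in wild type and 80.7 RPKM in dek44, a difference of 5.66-fold (5.42 to 5.91). In wild type, o2 and pdk1 were at nearly the same level, with 1.04 pdk1 per o2 on the RPKM scale. In dek44 the same quotient was 5.27. For pdk2 it was 1.49 in wild type and 14.6 in dek44, and for LKR/SDH 0.211 and 0.647. In log2 ratio the 3 genes lay above o2 by 2.33 (pdk1), 3.28 (pdk2) and 1.62 (LKR/SDH).

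The other genes known as Opaque2 targets were lower in dek44. Of 16 expressed genes in that list 15 were at least 2-fold lower and 0 higher, with a median log2 ratio of -3.13, against 3.7% lower and a median of 0.62 over all expressed genes. The list is mostly zeins, and near-identical copies make single zein genes uncertain. Starchy endosperm markers, which share zp15 and the alpha zein gene FL2 with this list, were lower too, with a median of -2.88 over 10 genes, and the part of that shift in the targets was not tested. The beta zein gene zp15 (GRMZM2G086294) was at 51113 RPKM in wild type and 6935 RPKM in dek44. The 22-kDa alpha zein gene z1C1_4 (GRMZM2G044625) was at 12595 and 854, and its relatives with the lowest ratios, z1C1_12 (GRMZM2G088365) and z1C1_11 (GRMZM2G088273), had log2 ratios of -8.65 and -4.21. Outside the zeins, the starch synthase gene du1 (GRMZM2G141399) was at 139 and 55.6, with a log2 ratio of -1.31. The b-32 gene (GRMZM2G063536) for a ribosome-inactivating protein, singled out after its values were seen, was at 96.5 and 17.7, with a log2 ratio of -2.38. LKR/SDH started from about the same wild-type level as b-32 (96.2 against 96.5) and was at 52.2 in dek44. The highest ratio in the list, 0.35, was that of GRMZM2G052546, which is named RIP1 but carries no b-32 name and may not belong.

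Storage gene regulators other than o2 differed less. With o2 counted in, 3 of 8 expressed identifiers were at least 2-fold lower and 0 higher, beside 3.7% and 31.6% of all expressed genes. The median log2 ratio of the 8, o2 included, was -0.65. The lower ones were o2, Nkd1 (GRMZM2G129261), a zinc finger factor at 171 in wild type and 81.3 in dek44, and fl3 (GRMZM2G006585), at 5545 and 2696. Of the bZIP relatives of Opaque2, ohp2 (GRMZM2G007063) was at 11.2 in wild type and 22.4 in dek44, a log2 ratio of 0.94. The other relative, ohp1 (GRMZM2G016150), was at 23.5 and 18.6. The prolamin-box factor name pbf1 belongs to a pair of identifiers, at 17.4 and 21.1 for GRMZM2G146267 and at 64.3 and 32.02 for GRMZM2G146283.

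**Figure D4:**
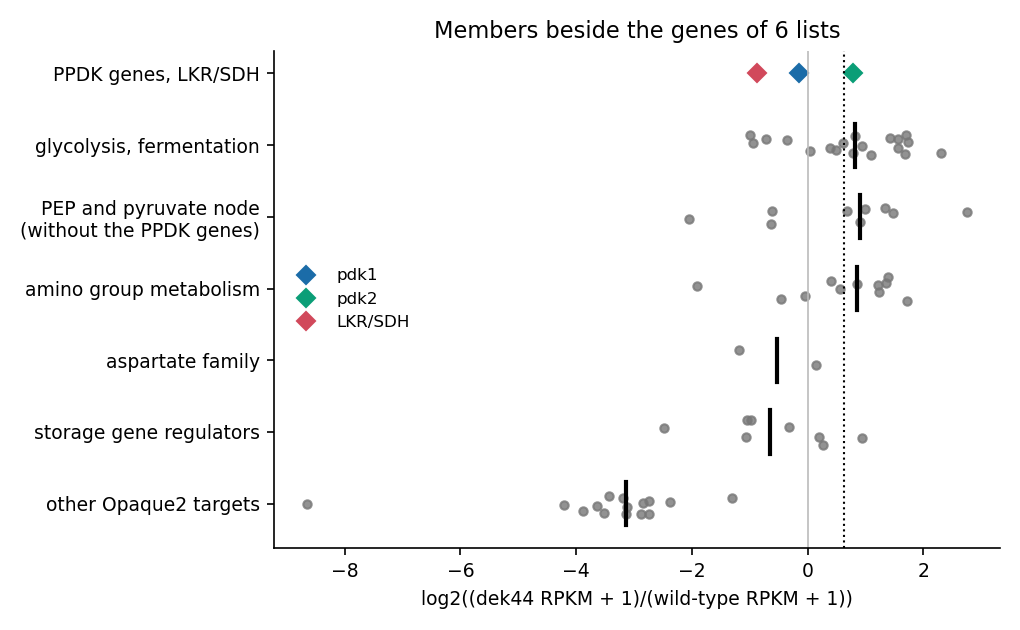
Log2 ratios of pdk1, pdk2 and LKR/SDH (diamonds, top) above those of the expressed genes of 6 lists (grey points, 1 per gene, jittered vertically). Genes whose names other proteins share and the PPDK genes are left out of the lists. A black bar marks the median of each list and a dotted line the median of all expressed genes (0.62). The other Opaque2 targets all lie below -1, to the left of the 3 genes, which lie between -0.87 and 0.79.

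Around the phosphoenolpyruvate and pyruvate node, where PPDK acts, genes went both ways. Of 17 expressed genes matched by name, pdk1 and pdk2 among them, 6 passed 2-fold upwards and 1 downwards, and the median log2 ratio was 0.91. Without 6 whose names belong to other proteins too, the counts were 3 and 1 of 11. The share of higher genes was near the 31.6% of all expressed genes (3.7% were lower). Once the median of all genes was set to 0, the 17 held 2 higher and 3 lower, beside 12.3% and 10.9% of all expressed genes. The regulatory protein of PPDK, pdrp1 (GRMZM2G131286), which switches the enzyme on and off by phosphorylation in leaves, was close to 0, at 0.0375 RPKM in wild type and 0.207 RPKM in dek44.

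The malate dehydrogenase genes were the higher ones. The gene named mdh4 and mdh5 (GRMZM2G415359), with the other name CYTMDH, was at 196 RPKM in wild type and 1323 RPKM in dek44, which is 6.76-fold higher (6.54 to 6.99). The gene mdh2 (GRMZM2G154595) was at 296 and 821, 2.77-fold higher (2.59 to 2.98), and mdh6 (GRMZM2G129513) at 0.222 and 2.08. The phosphoenolpyruvate carboxykinase gene pck2 (GRMZM5G870932), whose enzyme makes phosphoenolpyruvate from oxaloacetate, went the other way, at 138 in wild type and 32.6 in dek44, or 4.25-fold lower (4.01 to 4.50).

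The remaining genes of the 11 with fitting names lay within 2-fold on the log2(RPKM + 1) scale. The malic enzyme gene me2 (GRMZM2G122479) was at 451 in wild type and 290 in dek44, a level and a direction like those of pdk1, with a log2 ratio of -0.63. The other malic enzyme genes were scarce in both libraries. The leaf gene me3 (GRMZM2G085019) was at 3.72 and 2.08, and me4 (GRMZM2G118770) at 0.564 and 1.49. The phosphoenolpyruvate carboxylase genes pep7 (GRMZM2G069542) and pep4 (GRMZM2G473001) had log2 ratios of 0.91 and 0.99, the first at 43.2 and 82.2 and the second at 12.6 and 26.0.

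The names left out of the smaller count were a pair called PDK1, 3 called PK1, pk3 and pk4, and 1 called Pep1. The PDK1 pair, GRMZM2G097821 and GRMZM2G107196 (also pdlk1), carry no PPDK name and had log2 ratios of 1.03 and 0.96. For PK1 (GRMZM2G328785), pk3 (GRMZM2G309025) and pk4 (GRMZM2G014833), names that protein kinases also have, the ratios were 1.61, 0.82 and 0.25. For Pep1 (GRMZM5G899080) it was 3.49.

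Upstream and downstream of that node, the list for glycolysis, the entry to the pentose phosphate pathway and fermentation held 19 identifiers, all expressed. Their median log2 ratio was 0.82, and 8 passed 2-fold upwards and 0 downwards, beside 31.6% and 3.7% of all expressed genes. On the scale whose median over all genes is 0, these counts were 4 and 3, beside 12.3% and 10.9%. The list also holds the pentose phosphate genes pgd2 (GRMZM2G127798) and pgd3 (GRMZM2G440208), named after their values were seen, with log2 ratios of 0.62 and 1.56, so pgd3 is 1 of the 8. Genes with pdh names are in it too, also named after their values were seen. Such names cover different enzymes, since pgd2 is also named pdh2. GRMZM2G043198, with the pyruvate dehydrogenase name PDHE1-B, was at 1.09, and GRMZM2G145715 and GRMZM2G361693, named pdh1, were at 1.57 and 0.79. Whether the pdh1 genes encode pyruvate dehydrogenase or a pentose phosphate enzyme is not settled by their names. The phi1 gene is counted under each of its identifiers. The cytosolic glyceraldehyde-3-phosphate dehydrogenase genes gpc4 (GRMZM2G176307) and gpc2 (GRMZM2G180625) were at 3634 and 615 in wild type and at 12060 and 3047 in dek44. The enolase gene eno1 (GRMZM2G064302), for the enzyme that makes phosphoenolpyruvate in glycolysis, was at 2729 and 8760, so in both libraries it was well above either PPDK gene. The lowest ratios were those of the pyruvate decarboxylase gene pdc2 (GRMZM2G038821), -0.99, and of 1 identifier of the phosphohexose isomerase gene phi1 (GRMZM6G477257), -0.94. Another pyruvate decarboxylase gene, pdc3 (GRMZM2G087186), named after its values were seen, went the other way. It was at 95.1 in wild type and 313 in dek44, a log2 ratio of 1.71.

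On the lysine side, few genes of synthesis could be matched by name. Of 5 in the aspartate family list, all expressed, 2 passed 2-fold upwards and 1 downwards, and the median log2 ratio was 0.93, beside 31.6% higher, 3.7% lower and 0.62 for all expressed genes. Without the 3 whose names other proteins share, 0 were higher and 1 lower, and the median over the 2 left turned to -0.53. Only akh2 and cgs1 have names that fit no other protein. The gene akh2 (GRMZM2G104546), for an aspartate kinase-homoserine dehydrogenase at the entry of the pathway, was at 21.5 RPKM in wild type and 8.84 RPKM in dek44, which is 2.43-fold lower (2.20 to 2.69). The methionine branch gene cgs1 (GRMZM2G075153), for cystathionine gamma-synthase, was at 25.7 and 28.3, and its interval for the plain ratio, 0.980 to 1.24, included 1. LKR/SDH, for the breakdown of lysine, thus stood above both in level in each library and between them in ratio. For AK1 (GRMZM2G024686), ASK2 (GRMZM2G052935) and ak1 (GRMZM2G327406), names that other proteins share, the log2 ratios were 1.66, 1.22 and 0.93.

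Genes of amino group transfer, which take up the nitrogen that LKR/SDH passes to glutamate, numbered 12 among the expressed ones, of which 5 passed 2-fold upwards and 2 downwards, and their median log2 ratio was 0.71, beside 31.6% higher and 3.7% lower among all expressed genes. Once the median of all genes was set to 0, 1 was higher and 3 were lower, beside 12.3% and 10.9% of all expressed genes. The lower ones were the glutamine synthetase gene gln2 (GRMZM2G024104), at 157 in wild type and 41.1 in dek44, and GRMZM2G154182, at 1376 and 373, which is named Asn1 and nac4 and may not belong. The highest ratios were 1.71 for GLN6 (GRMZM2G050514), another glutamine synthetase gene, and 1.39 for the glutamate dehydrogenase gene gdh1 (GRMZM2G178415). GLN6 was at 2.27 in dek44 on 9 reads and had 0 reads in wild type. The lower end of its interval, 1.82-fold, was below 2-fold. The gdh1 gene was at 4.35 in wild type and 13.1 in dek44. The gene gln1 is counted under each of its identifiers, GRMZM2G098290 and GRMZM5G885867, with log2 ratios of 0.85 and 1.22. The second of these identifiers is 1 of the 5 that passed 2-fold upwards.

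Markers of the labelled tissue were present in both libraries. Of 10 starchy endosperm markers (without a gene misnamed ae1) 10 were at least 2-fold lower in dek44 (3.7% of all expressed genes were), and their summed RPKM was 202753 in wild type and 40427 in dek44. Of 5 expressed basal transfer layer markers 5 were at least 2-fold higher (31.6% of all expressed genes were), or 4 once the median of all genes was set to 0, with a sum over all 6 matched markers of 277 and 2349. Aleurone markers summed to 54.4 and 157, mostly through vpp1 at 35.8 and 133, while dek1 was at 14.4 and 13.3 and c1 at 0 reads in wild type. Embryo markers (without a haemoglobin gene named GLB1) summed to 313 and 413. Of the green leaf markers only me3 was matched with a fitting name, so leaf RNA could not be judged from this list. Fewer cells of a type and less RNA per cell cannot be told apart in such bulk libraries, and the part of these shifts in the PPDK and LKR/SDH values was not tested.

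Named genes with levels most like those of the 3 were found by the distance in log2(RPKM + 1) over the 2 libraries. Nearest to pdk1 were MBF1.2 (GRMZM2G101480, distance 0.26), PDIL5-1 (GRMZM2G443655, 0.29) and mde1 (GRMZM2G155281, 0.36). Nearest to pdk2 were PRO4 (GRMZM2G108780, also profilin-2, 0.12), a gene with the tubulin names TUA1 and TUA2 (GRMZM2G153292, 0.14) and the enolase gene eno2 (GRMZM2G048371, 0.32). Nearest to LKR/SDH were pdc2 (GRMZM2G038821, 0.10), SnRK2.11 (GRMZM2G063961, 0.13) and DIP1 (GRMZM2G010302, 0.17). With only 2 libraries this likeness covers a level and a ratio and nothing more.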

How the data were processed

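The deposited values are RPKM per gene model, computed by the authors per the file headers. Bowtie 0.12.2 and the build B73 RefGen_v3 are named in the submitters' processing notes. RNA was extracted with Trizol and treated with DNase I, per the labels' protocols. With the counting rule, strand, gene lengths and pooling not given in the sources used here, near-alike, overlapping and antisense genes have uncertain values.

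Library totals were recovered as the whole numbers at which RPKM values become whole reads over whole lengths. All 39505 genes above 0 in at least one library then gave whole reads in both, within 0.001 reads plus a relative 1e-09 and the rounding of the files, for some length from 100 to 25000 bases. Reads are the smallest that fit; true reads may be a multiple, and the intervals are then too wide. The procedure was tested on simulated data.

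Symbols were looked up in a RefSeq table (assembly Zm-B73-REFERENCE-NAM-5.0) by the identifiers it lists as synonyms, and 16688 of 41406 matched. The files use another build, and coordinates are left out. List genes were matched by exact symbols or synonyms, with or without a number after a stem. The named genes are the 3 members, o2, all genes of the node and aspartate lists, from other lists the 2 highest and 2 lowest ratios and the 2 highest mean RPKM, and the 3 nearest named genes of each member. The members and lists were chosen with earlier results of these data known. Alternatives were other pseudocounts, filters, thresholds and scalings. Calculations used Python 3.11.15, numpy 2.4.6, pandas 2.3.3 and scipy 1.17.1.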

Additional observations from a re-analysis of the deposited data

How the results depend on the processing

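The log2 ratios of pdk1, pdk2, LKR/SDH and summed PPDK came to -0.78, 0.17, -1.49 and -0.15 once the median of all ratios was set to 0, to -0.78, 0.16, -1.50 and -0.15 once the trimmed mean was, and to -0.38, 0.56, -1.09 and 0.25 with the sum outside zein names made equal. Pseudocounts of 0.1 and 5 and, added after the data were seen, none moved them by less than counting error, as did the former pair for the differences from o2. Counts of genes higher and lower were 4192 and 543 with a pseudocount of 5, 2084 and 260 at 4-fold, 3703 and 3284 with the median and 3667 and 3304 with the trimmed mean set to 0. List medians, in the order node, glycolysis, aspartate family, amino group, Opaque2 targets and regulators, were 0.29, 0.19, 0.31, 0.083, -3.75 and -1.28 with the median set to 0 and 0.29, 0.19, 0.31, 0.078, -3.76 and -1.28 with the trimmed mean. In the same order they were 0.50, 0.73, 0.75, 0.35, -2.86 and -0.59 with a pseudocount of 5 and 0.69, 0.59, 0.71, 0.52, -3.27 and -0.87 with the sum outside zein names made equal. Without the genes whose names other proteins share, an alternative added after the data were seen, the aspartate family median was -0.53 over 2 genes. From the smallest recovered reads, not scaled for length, the pdk1 share was 21.2% in dek44 and 34.1% in wild type. True reads may be a multiple that differs between the PPDK genes, so this share is uncertain. The shifts above follow from the scalings, the pseudocount, the fewer genes or the use of smallest reads without length scaling. The amino group median, above that of all genes as reported (0.71 against 0.62), was 0.41 with a filter at RPKM 5 and 0.48 with no filter, and that of the node was 0.94 and 0.87. Both counts of genes stayed within 1.5 times under these filters.

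No paired analysis was possible because the dek44 and wild-type libraries are single, and no replicate was there to leave out. Depth limits the scarce genes, such as pdrp1, mdh6 and GLN6, and not the PPDK genes or LKR/SDH, whose counting intervals are narrow.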
